A study of Mus musculus and Bos taurus with 26 samples.

Results

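Mouse zygotes received mRNA for wild-type Hdac1 or for a mutant Hdac1, and their transcripts were measured at the late 2-cell stage, 36 h after fertilization. The comparison rests on 2 mutant and 2 wild-type libraries of whole embryos, 4 of the 22 mouse libraries and of the 26 libraries in all. Genes entered when they reached 1 FPKM (fragments per kilobase of transcript, scaled to the library's total) in at least 2 of these 4 libraries, which held for 13874 of the 27988 genes in the deposited mouse table. The labels do not say which residue of the mutant Hdac1 was changed, how many embryos a library holds, or whether replicates came from separate collections, so the p-values given measure only the spread between libraries of a group, pooled over all 22 mouse libraries. Both groups carry the embryo's own Hdac1 gene and an injected Hdac1 mRNA; the strain of the mice is not given in the labels. Groups used beside it were embryos given the same 2 mRNAs and collected at the early 2-cell stage (24 h), wild-type and mutant Hdac2 mRNA at 36 h, water-injected embryos at 36 h, mutant Hdac1 mRNA at the zygote stage followed by water into both blastomeres (36 h), and the deacetylase inhibitor FK228 at 50 nM against its solvent DMSO at 36 h. Each of these groups had 2 libraries.

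Histone deacetylases remove acetyl groups from lysines of the histone tails, and HDAC1 and HDAC2 are close relatives that act within the NuRD, SIN3 and CoREST complexes. Acetylated histones mark promoters and enhancers in use, and removal of the mark by corepressor complexes is a textbook route to silencing. In the mouse the embryo's own genome is switched on in a minor wave in the zygote and a major wave in the 2-cell embryo, during which maternal RNA stored in the egg is degraded.

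The injected mRNA was visible in the libraries. Hdac1 (chromosome 4, 129516104 to 129542713, minus strand, GRCm38, GENCODE M21) was at 2707 and 2960 FPKM in the wild-type libraries and at 4952 and 4612 FPKM in the mutant libraries, against 92.2 and 89.3 FPKM in the water-injected ones. Both mRNAs are counted under the same gene, and the mutant libraries held more of it (log2 fold change 0.76 ± 0.18 SE, limma adjusted p = 0.00163). At 24 h the order was the other way, with 7253 and 4519 FPKM in wild-type and 4007 and 2952 FPKM in mutant libraries. The amount of injected mRNA and the mutation therefore cannot be told apart in this comparison alone. After mutant mRNA and a later water injection, Hdac1 was at 917 and 805 FPKM.

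Pearson's r across genes was 0.952 between the wild-type libraries and 0.926 between the mutant libraries, the lowest of the 11 mouse groups, which ran up to 0.988. The mutant libraries listed 13474 and 14341 genes at 1 FPKM or more and the wild-type libraries 11284 and 11628. Same-numbered libraries shared a feature: the short mitochondrial transcript mt-Atp8 was at 12481 and 13931 FPKM in mutant and wild-type replicate 1 and at 4517 and 5095 FPKM in replicate 2. Markers of the 2-cell embryo were present in all 4 libraries: Zscan4d was at 15.6 and 21 FPKM in wild type and 48.4 and 52.4 FPKM in mutant, and Obox3 at 57.0 and 55.6 against 36.1 and 32.3 FPKM. FPKM carry no read totals, and whole reads could not be recovered from the low values, because no more than 6.06% of low genes shared the commonest ratio in any pair of the 4 libraries. Depth is therefore unknown, and an exact 0 is given only as listed at 0.

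Genes were called at an adjusted p under 0.05 in limma's moderated test on log2(FPKM + 1), with the spread estimated over all 22 mouse libraries. By this rule 4577 genes (33.0% of those tested) were higher and 3709 (26.7%) were lower in mutant than in wild-type embryos. Of these, 3500 (25.2%) and 2437 (17.6%) differed by at least 2-fold on that scale. The scale understates the fold change of low genes. Genes with both wild-type libraries below 1 FPKM could enter only through the mutant libraries and could only come out higher: there were 2001 of them, of which 1917 were called. Among the 11605 genes with at least 1 library of each group at 1 FPKM or more, 2660 were higher and 3475 lower. The median fold change of all genes tested was 0.10 on the log2 scale, 0.06 after median-ratio scaling and -0.01 after quantile normalization. FPKM and both scalings centre the libraries, so this median carries no information on a change shared by all genes.

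Both ends of the list held different kinds of genes. At the upper end stood Gata2 and Bmp4, a blood and trophoblast transcription factor and a secreted growth factor, and Prtn3, a protease of myeloid granules. At the lower end stood Rpl37a, a ribosomal protein, Bbs2, a subunit of the ciliary BBSome, and Pramel7, a 2-cell and inner cell mass gene. Their promoters are shown because CG dinucleotides, which are capitalised, were unevenly spread between genes that were higher and lower, as given further on. The stretches are the 250 bases before the RefSeq start (build GRCm38.p6), 5′ to 3′ on the gene's strand. Where a gene had more than 1 RefSeq entry the first was used, and Gata2 had 2. The first 3 lines are genes that were higher and the last 3 genes that were lower.
Gata2: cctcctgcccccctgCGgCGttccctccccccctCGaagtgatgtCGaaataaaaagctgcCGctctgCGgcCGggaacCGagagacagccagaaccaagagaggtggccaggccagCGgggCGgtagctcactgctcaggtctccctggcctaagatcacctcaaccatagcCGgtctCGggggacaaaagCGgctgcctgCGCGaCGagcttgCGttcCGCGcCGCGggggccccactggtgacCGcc
Bmp4: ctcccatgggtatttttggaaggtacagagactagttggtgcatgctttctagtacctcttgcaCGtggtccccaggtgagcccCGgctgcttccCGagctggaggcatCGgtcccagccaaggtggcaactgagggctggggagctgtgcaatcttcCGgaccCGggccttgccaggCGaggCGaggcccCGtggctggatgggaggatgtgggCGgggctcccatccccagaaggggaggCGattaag
Prtn3: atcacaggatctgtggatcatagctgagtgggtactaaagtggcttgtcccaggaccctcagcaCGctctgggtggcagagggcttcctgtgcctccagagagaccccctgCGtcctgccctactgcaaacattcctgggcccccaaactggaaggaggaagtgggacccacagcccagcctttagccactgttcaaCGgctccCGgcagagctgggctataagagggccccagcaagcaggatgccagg
Rpl37a: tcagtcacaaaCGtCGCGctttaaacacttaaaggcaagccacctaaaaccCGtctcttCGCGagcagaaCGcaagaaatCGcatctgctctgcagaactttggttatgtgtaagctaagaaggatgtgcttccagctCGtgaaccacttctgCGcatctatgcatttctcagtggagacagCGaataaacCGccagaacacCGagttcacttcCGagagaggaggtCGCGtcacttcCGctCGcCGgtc
Bbs2: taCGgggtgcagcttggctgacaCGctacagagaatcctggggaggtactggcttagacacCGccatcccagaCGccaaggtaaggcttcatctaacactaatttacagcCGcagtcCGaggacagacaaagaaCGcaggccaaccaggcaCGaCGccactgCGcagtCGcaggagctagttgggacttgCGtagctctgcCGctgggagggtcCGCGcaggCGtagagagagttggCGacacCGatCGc
Pramel7: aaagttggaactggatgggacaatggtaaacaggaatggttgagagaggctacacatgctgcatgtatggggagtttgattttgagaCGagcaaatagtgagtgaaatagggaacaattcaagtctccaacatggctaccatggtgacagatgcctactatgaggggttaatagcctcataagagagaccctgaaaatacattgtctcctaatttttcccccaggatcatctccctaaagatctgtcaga
The windows are chr6:88193641-88193890 on the plus strand for Gata2, chr14:46390670-46390919 on the minus strand for Bmp4, chr10:79879417-79879666 on the plus strand for Prtn3, chr1:72711010-72711259 on the plus strand for Rpl37a, chr8:94098510-94098759 on the minus strand for Bbs2 and chr2:87492419-87492668 on the minus strand for Pramel7. Within a side the counts differed: there were 22 CG dinucleotides for Gata2, 11 for Bmp4 and 4 for Prtn3 among the genes that were higher, and 19 for Rpl37a, 19 for Bbs2 and 1 for Pramel7 among those that were lower. Gata2 was at 0.891 and 1.66 FPKM in wild type and at 99.4 and 93.1 FPKM in mutant libraries. Pramel7 was at 152 and 115 FPKM in wild type and at 3.45 and 13.4 FPKM in mutant libraries. In both genes the groups stood far apart with no overlap.

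Other genes at the upper end had no common theme fixed for them. Cited4, a co-activator that binds CBP and p300, went from 0 and 0.484 to 29.8 and 36.5 FPKM. Hrh3, a histamine receptor of neurons, went from 0.147 and 0.837 to 39.5 and 39 FPKM, and Oxct2b, a testis enzyme of ketone body use, from 0.251 and 0.353 to 38.7 and 32 FPKM. At the lower end the proteasome subunit Psmb5 went from 56.1 and 52.2 to 2.78 and 5.75 FPKM, the potassium channel Kcnk6 from 54.1 and 49 to 3.25 and 5.01 FPKM, and Btbd18 from 284 and 240 to 17.3 and 32.2 FPKM. In each the lowest library of the higher group stood far above the highest of the other.

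The direction of a call went with the difference between late water-injected and early wild-type Hdac1 embryos. Genes were classed by these libraries, none of which enter the mutant comparison, as risen or fallen where limma called a change of at least 2-fold. The 2 groups differ in time (36 h and 24 h) and in what was injected, which cannot be told apart in the classes. Of 4163 genes that had risen by 36 h, 55.1% were lower in mutant embryos and 13.5% higher, with a median of -0.79 on the log2 scale. Of 2833 genes that had fallen, 33.7% were higher and 7.41% lower, with a median of 0.29. Among the remaining 6878 genes 44.5% were higher and 17.5% lower, with a median of 0.44.

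The share that was lower grew with the size of that rise. It was 67.8% of 2229 genes that rose at least 4-fold, 79.7% of 962 that rose at least 8-fold and 87.9% of 282 that rose at least 16-fold. In log2(FPKM + 1), the median of the genes that had risen was 1.53 and 1.55 in the early wild-type libraries, 4.08 and 4.08 in the late water libraries, 3.92 and 3.89 in the late wild-type libraries and 3.22 and 3.34 in the late mutant libraries. The early and the water libraries define the classes, so their low and high levels are set by that choice. The late wild-type libraries are the control outside it, and the mutant libraries stood below them. The genes that had fallen were at a median of 2.61 and 2.51 in late wild-type and 3.10 and 3.08 in late mutant libraries, against 4.47 and 4.38 early.

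**Figure D1:**
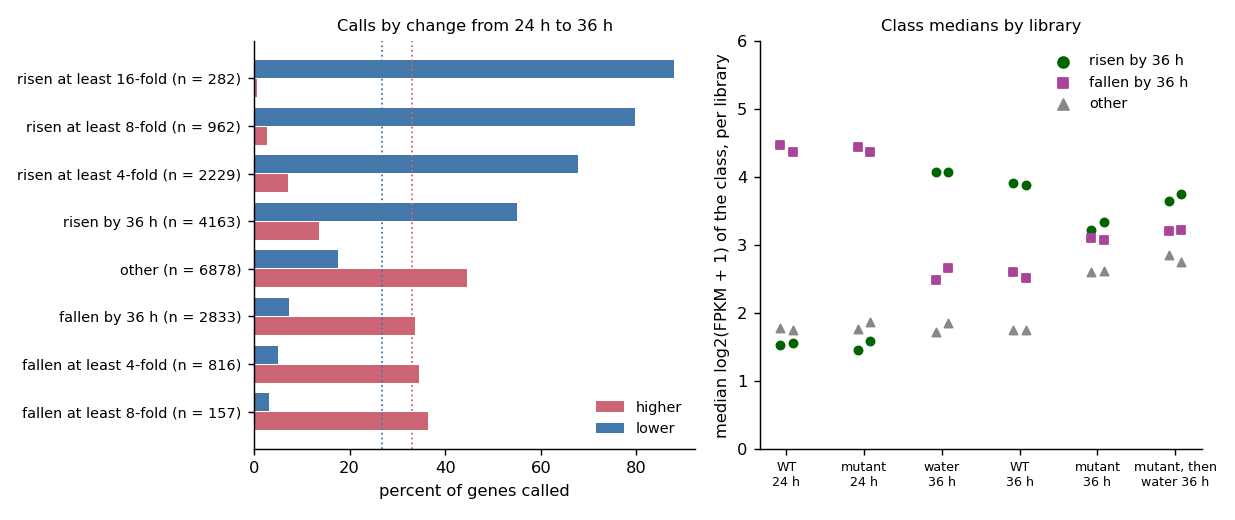
Left, percent of genes called higher or lower in mutant against wild-type Hdac1 embryos at 36 h (x axis) by the change of the gene from 24 h to 36 h in other libraries (y axis, with the number of genes); dotted lines mark the shares over all 13874 genes. Right, the median log2(FPKM + 1) of each class in each library. The genes that had risen stand at 3.22 and 3.34 in the mutant libraries and at 3.92 and 3.89 in late wild type. The early wild-type and late water libraries define the classes.

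Level in water-injected embryos went with direction as well. Genes were binned by their mean FPKM in the water libraries. Of 594 genes above 100 FPKM, 67.5% were lower and 2.02% higher; of 2971 genes between 20 and 100 FPKM, 57.0% were lower. Of 2360 genes above 0 and up to 1 FPKM, 74.8% were higher, a share that the entry rule raises, since most such genes enter through the mutant libraries. Within 1 level the stage class still divided the genes. Between 20 and 100 FPKM, 74.5% of 1494 risen genes were lower against 18.3% of 459 fallen and 48.7% of 1018 other genes.

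Genes listed at 0 in water-injected embryos were also counted without any entry rule. A total of 8248 genes were listed at 0 in both water-injected late libraries. Of these, 282 (3.42%) reached 1 FPKM in both mutant libraries and 4 (0.0485%) in both wild-type libraries. The count was 301 after mutant mRNA and water, 408 with mutant against 10 with wild-type Hdac2, and 498 with FK228 against 23 with DMSO. At 5 FPKM in both libraries there were 38 such genes in mutant and 0 in wild-type Hdac1 embryos. The next examples were chosen after their values were seen. Npy, which encodes a neuropeptide, was listed at 0 in both wild-type libraries and was at 12.8 and 17.6 FPKM in the mutant libraries. Hmx3, a homeobox factor of the inner ear, was listed at 0 and then at 14.7 and 11.1 FPKM, and Fxyd5, a regulator of the sodium pump, was listed at 0 and then at 10.96 and 13.2 FPKM. All 3 were also detected in every mutant Hdac2 and every FK228 library, Npy at no less than 7.59 FPKM.

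**Figure D2:**
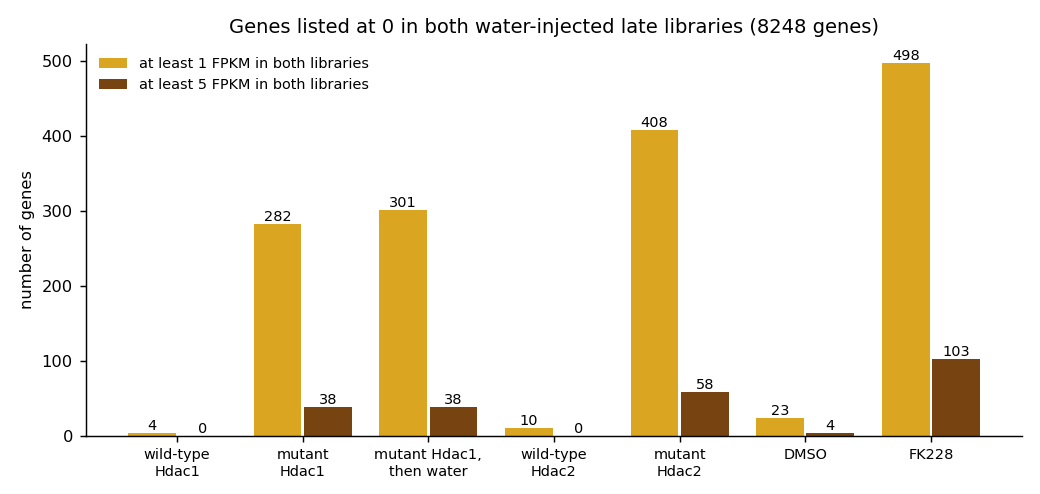
Number of genes (y axis) among the 8248 listed at 0 in both water-injected late libraries that reached 1 FPKM (light bars) or 5 FPKM (dark bars) in both libraries of each group (x axis). The mutant Hdac1 group has 282 and 38 such genes and the wild-type Hdac1 group 4 and 0.

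Developmental transcription factors were taken family by family. Counts are given over every member of a list in the table, without the entry rule, because many members entered only through the mutant libraries. Over all 27988 genes, both mutant libraries lay above both wild-type libraries in 29.6% and below them in 17.9%. Of 39 Hox genes, which pattern the body axis, 36 had both mutant libraries above both wild-type ones and 0 below; 1 reached 1 FPKM in both wild-type libraries and 20 in both mutant libraries. Of 103 other homeobox factors 85 lay above and 0 below, and the number at 1 FPKM went from 16 to 73. Among 52 basic helix-loop-helix factors 40 lay above and 0 below, among 35 Sox and T-box factors 25 and 2, and among 41 forkhead factors 28 and 6. Of those tested, 19 of 20 Hox genes and 48 of 75 other homeobox factors had no wild-type library at 1 FPKM.

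Msx1 (chromosome 5, 37820485 to 37824583, minus strand), a homeobox repressor of limb and tooth buds, was at 2.75 and 2.78 FPKM in wild type and at 95.1 and 94.2 FPKM in mutant libraries. It rose by 4.67 ± 0.23 on the log2 scale (limma adjusted p = 1.27e-09). Irx3 and Irx5, neighbouring members of the Iroquois homeobox family, are shown together. Irx5 went from 0.557 and 0.595 to 35.9 and 39.1 FPKM, and Irx3 from 0 and 0.821 to 29.2 and 33.8 FPKM. Nkx6-1, a factor of pancreas and motor neurons, went from 0.200 and 0.230 to 25.8 and 28.9 FPKM. These groups did not overlap.

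Among Hox genes Hoxd1 was highest in the mutant libraries, at 24.9 and 24.1 FPKM against 0.461 and 0.482. Posterior members were present too: Hoxd13 was at 8.79 and 8.58 FPKM against 0.0413 and 0.160, and Hoxb13 at 5.01 and 5.12 FPKM with both wild-type libraries listed at 0. Sox17, a factor of primitive endoderm, went from 0.987 and 0.0410 to 28.8 and 27.4 FPKM, a rise of 4.34 ± 0.30 on the log2 scale. With both wild-type libraries below 1 FPKM, Sox17 entered only through the mutant libraries and could only come out higher. Eomes, a T-box factor of trophectoderm and mesoderm, went from 1.30 and 0.674 to 22.1 and 22.7 FPKM. Hand1, a bHLH factor of trophoblast and heart, went from 0.837 and 1.37 to 23.9 and 20.8 FPKM. Id2 and Id3, which lack a DNA-binding domain and hold bHLH partners inactive, rose by 2.53 and 3.51. A member in the opposite direction was Sox13, which fell from 31.4 and 23.7 to 4.10 and 3.91 FPKM.

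**Figure D3:**
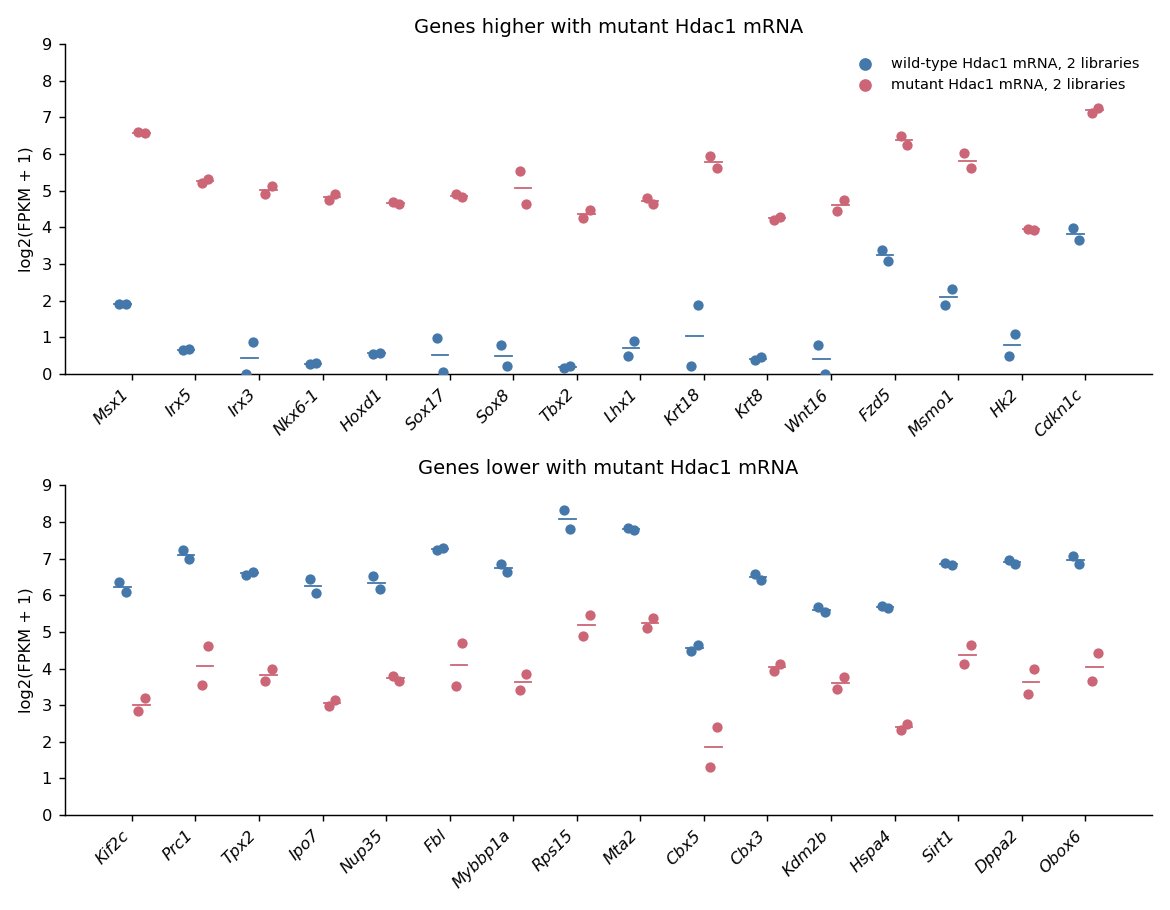
Level in log2(FPKM + 1) (y axis) of 16 genes that were higher and 16 that were lower with mutant Hdac1 mRNA at 36 h (x axis); each point is a library, 2 per group, and each short line the mean of the group. The groups do not overlap: Msx1 was at 2.75 and 2.78 FPKM in wild type and 95.1 and 94.2 in mutant, and Kif2c at 80.8 and 67.5 against 6.15 and 8.16 FPKM.

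Forkhead factors included Foxo6, which went from 0.935 and 1.18 to 31.9 and 31.4 FPKM, and Foxd3, a neural crest and pluripotency factor, which went from 0.134 and 0.172 to 16.6 and 12.7 FPKM. In both the mutant libraries lay far above the wild-type ones.

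Secreted signals and their receptors were taken pathway by pathway, again over all members in the table. Of 29 BMP, activin and TGF-beta ligands 19 had both mutant libraries above both wild-type ones and 2 below, and of 35 receptors, inhibitors and targets 23 and 3. Over the whole table the shares were 29.6% above and 17.9% below. Bmp4 (chromosome 14, 46383520 to 46390669, minus strand) was at 0.405 and 0.254 FPKM in wild type and at 50.0 and 45.8 FPKM in mutant libraries. It rose by 5.20 ± 0.26 on the log2 scale. With both wild-type libraries below 1 FPKM, Bmp4 entered only through the mutant libraries and could only come out higher. Smad6, an inhibitor that BMP signalling itself induces, went from 0.101 and 0.105 to 6.45 and 5.96 FPKM. The type I receptor Bmpr1a fell, from 14.3 and 14.2 to 4.21 and 6.97 FPKM (by 1.24 ± 0.30 on the log2 scale, limma adjusted p = 0.00182).

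Of 48 Wnt ligands, receptors and inhibitors 34 lay above and 2 below, against 29.6% and 17.9% over the whole table. Of the 31 tested 80.6% were called higher. Among all tested genes above 0 and up to 1 FPKM in water-injected embryos the share was 74.8%. The part of low expression in the pathway counts was not tested. Wnt16, a secreted ligand, went from 0.722 and 0 to 20.9 and 25.7 FPKM, and Wnt11 from 1.58 and 1.10 to 24.4 and 20.6 FPKM. The receptor Fzd5 (chromosome 1, 64730558 to 64737751, minus strand) was already detected in wild type, at 9.45 and 7.42 FPKM, and reached 89.6 and 74.5 FPKM; it rose by 3.14 ± 0.23 on the log2 scale (limma adjusted p = 2.29e-08). Fzd9 went the other way, from 27.9 and 18.9 to 13.6 and 12.5 FPKM, a call that was lost without mutant replicate 2 (limma adjusted p = 0.0733) and without wild-type replicate 1 (limma adjusted p = 0.176). In the Notch and Hedgehog pathways 19 of 27 members lay above and 1 below: the Notch ligand Dll1 went from 0.0826 and 1.74 to 23.5 and 25.5 FPKM and the Hedgehog ligand Dhh from 0.219 and 1.21 to 13.5 and 17.4 FPKM. Of 59 ephrins, semaphorins, netrins, slits and their receptors, which guide axons and vessels, 39 lay above and 2 below; the netrin receptor Unc5b went from 1.66 and 1.15 to 35.1 and 29.8 FPKM. Of 35 Fgf ligands and receptors 20 lay above and 4 below. Fgfr3 went from 1.57 and 0.669 to 35.6 and 27.6 FPKM, whereas Fgf4, the ligand of the inner cell mass, fell from 18.8 and 15.7 to 8.73 and 5.42 FPKM.

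Structural genes of epithelia were among the higher ones. Krt18 (chromosome 15, 102028180 to 102032027, plus strand) and Krt8 encode the keratin pair of the trophectoderm, the first epithelium of the embryo. Krt18 went from 0.163 and 2.66 to 60.7 and 48.5 FPKM, and Krt8 from 0.299 and 0.363 to 17.4 and 18.5 FPKM. Krt19 was listed at 0 in both wild-type libraries and was at 8.33 and 7.79 FPKM in mutant libraries. Of 61 keratins and intermediate filaments 31 had both mutant libraries above both wild-type ones and 1 below, against 29.6% and 17.9% over the whole table. Tead4, the factor that specifies trophectoderm, fell from 16.0 and 17.5 to 6.75 and 7.19 FPKM.

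Of 72 extracellular matrix genes 46 lay above and 0 below, among them Col1a1, a fibrillar collagen chain, from 0.0321 and 0.115 to 8.44 and 10.2 FPKM, and Mmp9, a gelatinase, from 0 and 0.172 to 10.7 and 13.8 FPKM. Of 56 junction genes 34 lay above and 7 below. The tight-junction claudin Cldn3 went from 0.561 and 1.71 to 13.4 and 13.1 FPKM. Of the 7, the 3 named ones were expressed in wild type and fell: Ctnnb1, encoding beta-catenin, from 102 and 80.2 to 39.1 and 28.8 FPKM, the polarity gene Crb3 from 156 and 146 to 54.9 and 66.6 FPKM, and the connexin Gja1 from 8.66 and 11.7 to 2.33 and 4.195 FPKM. Of 151 ion channels 89 lay above and 3 below.

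Immediate-early genes, which follow growth signals within minutes in most cells, lay above in 28 of 31 cases and below in 1. Over the whole table the shares were 29.6% and 17.9%. Junb, an AP-1 subunit, went from 0.877 and 0.710 to 24.6 and 23.7 FPKM and rose by 3.81 ± 0.17 on the log2 scale. With both wild-type libraries below 1 FPKM, Junb entered only through the mutant libraries and could only come out higher. Jund, a relative of Junb already expressed in wild type, fell from 69.5 and 31.9 to 16.5 and 19.7 FPKM. Inhibitors of cyclin-dependent kinases, which halt the cell cycle, were called higher in 5 of the 8 tested and lower in 0 (also 0 at an unadjusted p under 0.05), with a median of 1.10 against 0.10 for all genes tested. Cdkn1c (chromosome 7, 143458339 to 143461050, minus strand), encoding p57, was at 14.9 and 11.5 FPKM in wild type and at 138 and 152 FPKM in mutant libraries. It rose by 3.37 ± 0.23 on the log2 scale (limma adjusted p = 1.32e-08). Cdkn1a, encoding p21, went from 19 and 17 to 59.4 and 58.1 FPKM.

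Metabolic lists differed in direction. Over all genes tested 33.0% were higher and 26.7% lower. Several lists were called both ways. Lysosome and autophagy genes had 11 higher and 18 lower of 34, and solute carriers 92 and 40 of 216. Respiratory complex I had 8 and 6 of 33, and complexes II to V had 5 and 16 of 38. Of 23 cholesterol synthesis genes 15 rose and 1 fell, with a median of 1.17. Msmo1 (chromosome 8, 64718139 to 64733792, minus strand), a sterol demethylase, went from 2.69 and 3.99 to 63.8 and 48.2 FPKM, a rise of 3.72 ± 0.20 on the log2 scale (limma adjusted p = 1.94e-09). Srebf1, a transcription factor that activates sterol and fatty acid genes, went from 3.27 and 1.59 to 24.4 and 14.9 FPKM. The exception was Fdft1, squalene synthase, which fell from 49.2 and 48.3 to 22.6 and 19.08 FPKM. Of 21 glycolysis genes 15 rose and 1 fell, with a median of 0.91. Hexokinase Hk2 went from 0.403 and 1.13 to 14.5 and 14.2 FPKM and Pfkp, a phosphofructokinase, from 2.59 and 1.2 to 22.7 and 18.5 FPKM. Pgam1 fell from 46.4 and 48.3 to 13.3 and 14.3 FPKM. Of 27 glutathione and antioxidant genes 16 rose and 5 fell; Gstm1, a glutathione transferase, went from 1.45 and 0 to 20 and 18 FPKM, and Gsr, glutathione reductase, fell from 5.83 and 11 to 0.558 and 1.27 FPKM.

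Most genes of nucleotide synthesis and of mitochondrial import were lower, with shares of 60.6% and 67.7%. Over all genes tested the share was 26.7%, and 57.0% between 20 and 100 FPKM in water-injected embryos. Of 33 one-carbon and nucleotide genes 20 fell and 5 rose (2 rose without wild-type replicate 1 and 3 without mutant replicate 1). Cad, which starts pyrimidine synthesis, went from 55.6 and 49.6 to 5.37 and 11.3 FPKM. Of 31 mitochondrial import and folding genes 21 fell and 4 rose: the import receptor Tomm20 went from 30.5 and 22.9 to 4 and 3.99 FPKM, and the chaperonin Hspe1 from 5.33 and 8.26 to 24.4 and 36.7 FPKM. None of 13 mitochondrially encoded mRNAs was called in limma's test, and 0 passed an unadjusted p under 0.05, with a median of -0.03 that was 0.14 without mutant replicate 2 and 0.01 without wild-type replicate 2.

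Most of the machinery that makes ribosomes fell. Over all genes tested 26.7% were lower, and 67.5% of those above 100 FPKM in water-injected embryos. Of genes that had also risen by 36 h, 90.2% were lower above 100 FPKM and 74.5% between 20 and 100 FPKM. The part of level and stage class in these counts was not tested. Of 48 small subunit processome and 40S maturation factors 47 fell, of 59 60S assembly factors 56 fell and 1 rose, of 17 genes of RNA polymerase I and its factors 15 fell, and of 18 snoRNP proteins 16 fell. The medians were -1.61, -1.71, -1.82 and -1.64 on the log2 scale. Fbl, the methyltransferase of box C/D snoRNPs, went from 148 and 156 to 10.4 and 25.2 FPKM. Mybbp1a, a nucleolar regulator of RNA polymerase I, went from 115 and 97.6 to 9.72 and 13.4 FPKM. Ribosomal proteins followed: 30 of 33 in the small subunit fell, with a median of -1.61, and 43 of 51 in the large subunit, with a median of -1.36. Rps15 went from 322 and 224 to 28.9 and 43.1 FPKM. In none of these lists but the 60S factors did any member rise, also not at an unadjusted p under 0.05 in limma's test.

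Genes of nuclear transport and splicing were mostly lower as well. The shares lower were 83.0% for nuclear transport, 78.4% for SR and hnRNP proteins and 66.0% for the spliceosome core. Over all genes tested 26.7% were lower, and 57.0% of those between 20 and 100 FPKM in water-injected embryos. The part of expression level in these counts was not tested. Of 47 nuclear pore and transport genes 39 fell and 0 rose, with a median of -1.30. Ipo7, an importin that carries ribosomal proteins into the nucleus, went from 86.7 and 65.7 to 6.87 and 7.90 FPKM, a fall of 3.19 ± 0.20 on the log2 scale (limma adjusted p = 6.29e-09). Nup35, a scaffold nucleoporin, went from 90.2 and 70.8 to 13 and 11.7 FPKM. Of 37 SR and hnRNP proteins 29 fell and 0 rose, with a median of -1.17, and of 53 snRNP and spliceosome core genes 35 fell and 0 rose, with a median of -1.0. In these lists 0 members were higher at an unadjusted p under 0.05.

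Of 36 mitotic kinase and spindle genes 25 fell and 0 rose, with a median of -1.08 and 0 higher at an unadjusted p under 0.05 in limma's test. The share lower was 69.4%, against 57.0% of all genes between 20 and 100 FPKM in water-injected embryos. Kif2c (chromosome 4, 117159639 to 117182639, minus strand), a kinesin that takes microtubules apart at centromeres, was at 80.8 and 67.5 FPKM in wild type and at 6.15 and 8.16 FPKM in mutant libraries. It fell by 3.21 ± 0.17 on the log2 scale (limma adjusted p = 1.75e-09). Prc1, which bundles the central spindle, went from 149 and 126 to 10.7 and 23.5 FPKM, and Tpx2, an activator of Aurora A, from 92.1 and 99.1 to 11.7 and 14.9 FPKM. Of 30 cyclins and their kinases 11 were higher and 11 lower, 36.7% each way, near the 33.0% and 26.7% over all genes. In bulk embryos fewer cells of a kind and less RNA per cell cannot be told apart.

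Subunits of the complexes that hold HDAC1 were counted complex by complex. The shares lower were 66.7% for NuRD, 33.3% for SIN3 and 41.7% for CoREST and MiDAC. Among all genes tested 26.7% were lower and 33.0% higher, and the SIN3 share lower was near the first of these. Between 20 and 100 FPKM in water-injected embryos 57.0% of genes were lower. The share higher was below 33.0% in each list. Of 12 NuRD subunits tested 8 fell and 1 rose (3 rose after quantile normalization), with a median of -0.81. Of 15 SIN3 subunits 5 fell and 3 rose, with a median of -0.09 that turned to 0.37 after quantile normalization, where 3 fell and 6 rose; 2 fell without mutant replicate 1, and 3 without either wild-type library in turn. Of 12 CoREST and MiDAC subunits 5 fell and 2 rose, with a median of -0.36; 0 rose without mutant replicate 1. Mta2 (chromosome 19, 8941875 to 8952303, plus strand), which recruits HDAC1 into NuRD, was at 225 and 221 FPKM in wild type and at 33.5 and 40.4 FPKM in mutant libraries, a fall of 2.57 ± 0.17 on the log2 scale (limma adjusted p = 7.61e-09). Its relative Mta3 went from 32.1 and 32.0 to 6.33 and 7.90 FPKM. The methyl-CpG subunits parted: Mbd3 fell from 47.5 and 37.8 to 16.0 and 22.6 FPKM and Mbd2 rose from 5.17 and 2.46 to 11.3 and 18.2 FPKM. Hdac2, the close relative, rose from 19.3 and 16.3 to 47.3 and 43.8 FPKM (by 1.31 ± 0.14, limma adjusted p = 1.06e-06). Sirt1, an NAD-dependent deacetylase, fell from 117 and 113 to 16.4 and 24.0 FPKM.

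Heterochromatin genes were called in 1 direction. Of 21 genes for H3K9 methylation and heterochromatin 14 fell and 0 rose, with a median of -1.17 (0 higher at an unadjusted p under 0.05 in limma's test). The share lower was 66.7%. Over all genes tested it was 26.7%, and 57.0% between 20 and 100 FPKM in water-injected embryos. Cbx5, encoding HP1 alpha, went from 21.1 and 24.2 to 1.47 and 4.33 FPKM, and Cbx3, encoding HP1 gamma, from 95.1 and 84.8 to 14.2 and 16.6 FPKM. Ehmt1, an H3K9 methyltransferase, went from 34.2 and 24.6 to 3.99 and 4.44 FPKM. Of 9 H3K4 demethylases 7 fell and 1 rose, with a median of -1.30: Kdm5b fell by 1.26 ± 0.25 from 116 and 126 to 56.6 and 43.7 FPKM (limma adjusted p = 0.000345), Kdm1a from 19.8 and 23.2 to 5.39 and 8.13 FPKM, and Kdm1b rose from 11.6 and 8.83 to 23.3 and 20.5 FPKM. Of 18 histone acetyltransferases 11 fell and 1 rose, with a median of -0.72. Of 29 SWI/SNF and ISWI genes 17 fell and 2 rose (4 rose after quantile normalization). Smarca4, the ATPase of the SWI/SNF complex, went from 43.3 and 47.5 to 9.32 and 11 FPKM.

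Polycomb subunits keep developmental genes silent. Of 30 tested 11 rose and 11 fell, shares of 36.7% each way that lie near the 33.0% and 26.7% over all genes (7 fell without mutant replicate 2, and 3 after quantile normalization). Epop had the largest change in the list, a rise of 5.05 on the log2 scale. The chromodomain subunit Cbx8 rose from 2.51 and 1.06 to 16.9 and 12.4 FPKM. Pcgf6, which defines a variant form of the complex, fell from 75.3 and 64.4 to 14.1 and 13.9 FPKM, and Mtf2, an accessory subunit of the methyltransferase complex, from 125 and 91.1 to 22.8 and 25.8 FPKM. Kdm2b, which brings a variant complex to CpG islands, fell from 50.4 and 45.3 to 9.93 and 12.7 FPKM.

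**Figure D4:**
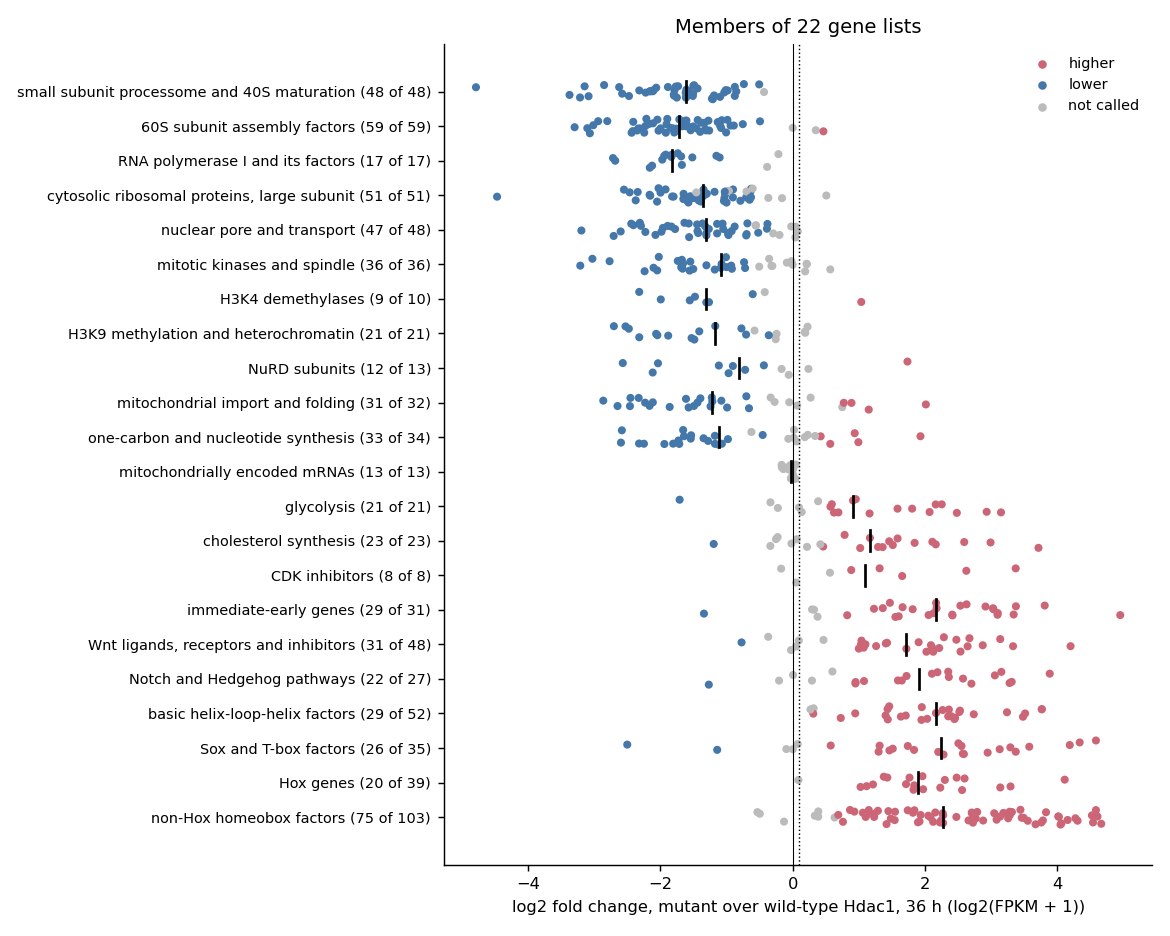
Log2 fold change, on the log2(FPKM + 1) scale, of mutant over wild-type Hdac1 at 36 h (x axis) for the members tested of 22 gene lists (y axis, members tested of members in the table); each point is a gene coloured by its call and each black line the median of the members tested. The ribosome, nuclear pore and heterochromatin lists lie left of the dotted all-gene median of 0.10 and the cholesterol and glycolysis lists right of it; the Hox and other developmental lists hold many members that entered only through the mutant libraries.

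Genes of the 2-cell embryo itself were called both ways. Over all genes tested 33.0% were higher and 26.7% lower. Of 35 members of the 2-cell burst families tested 19 were higher and 7 lower, and 32 of the 36 members in the table reached 1 FPKM in both wild-type libraries. Zscan4c, a zinc-finger gene of telomere maintenance, went from 12.8 and 13.5 to 62.8 and 61.6 FPKM. Of 26 Obox genes and activators of the embryonic genome 14 fell and 5 rose (3 rose when mutant replicate 1, mutant replicate 2 or wild-type replicate 1 was left out, and 8 after quantile normalization). Dppa2, a chromatin factor that switches on 2-cell genes, went from 123 and 115 to 8.82 and 14.7 FPKM, a fall of 3.28 ± 0.21 on the log2 scale (limma adjusted p = 7.61e-09). Maternal oocyte factors stood near the middle, with 4 of 42 higher, 4 lower and a median of 0.05 (2 higher without mutant replicate 2, and 16 higher after quantile normalization). Of 46 germline and meiosis genes 15 had both mutant libraries above both wild-type ones and 6 below, close to the shares of 29.6% and 17.9% over the whole table. Among the named members, Stra8, the switch to meiosis, was listed at 0 in both wild-type libraries and was at 11 and 14.4 FPKM in mutant libraries, and the meiotic cohesin Rec8 was listed at 0 and then at 5.66 and 5.34 FPKM.

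Genes of other cell types were looked at beside the developmental genes. Of 12 blood markers 7 had both mutant libraries above both wild-type ones and 0 below, against 29.6% and 17.9% over the whole table. All 5 that were tested were higher, but 2 of them had no wild-type library at 1 FPKM and could only come out higher. The summed level of all 12 was 5.50 and 4.41 FPKM in wild type and 123 and 108 FPKM in mutant libraries. The rise rested on alpha-globin and on Cd74: Hba-a1 went from 3.95 and 1.03 to 51.2 and 32.8 FPKM and Hba-a2, a near-identical copy, from 0 and 0.803 to 31.0 and 37.2 FPKM. The blood markers Hbb-bs, Hbb-bt and Ptprc were listed at 0 in all 4 libraries. Of 21 cumulus and granulosa markers 6 were tested, with 4 higher and 1 lower, though 3 of the 6 had no wild-type library at 1 FPKM. Over all 21 members 13 had both mutant libraries above both wild-type ones and 1 below. Their summed level was 44.5 and 53 FPKM in wild type and 21.7 and 30.5 FPKM in mutant libraries. Amhr2 carried the lower sum, going from 40.8 and 48.7 to 6.63 and 8.59 FPKM; without it the sum was 3.65 and 4.37 FPKM in wild type and 15.1 and 21.9 FPKM in mutant libraries. Fshr, Lhcgr and Hsd3b1 were listed at 0 in all 4 libraries. Of 15 sperm markers 4 were tested, with 1 higher and 1 lower, and 1 of the 4 had no wild-type library at 1 FPKM. The part of other cells in the higher genes was not tested.

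Promoter sequence was not used in choosing or calling genes and was compared between those that were higher and lower. RefSeq promoters of 300 bases (250 before to 50 after the start) were matched to 10069 of the 13874 genes tested, with the first entry where a gene had several. The observed over expected ratio of CG dinucleotides had a median of 0.70 in 3400 genes that were higher, 0.84 in 2725 that were lower and 0.76 in all. Across 5 equal bins from the lowest to the highest ratio the share of lower genes was 15.1%, 20.8%, 26.0%, 34.0% and 39.4%, and the share of higher genes 41.5%, 43.5%, 35.9%, 27.4% and 20.5%. Letter matches were counted on both strands. CCGGAAGT, the core letters that ETS factors bind, stood in 4.03% of higher, 14.2% of lower and 8.26% of all promoters. CACGTG, the E-box of Myc and its relatives, stood in 8.65%, 13.6% and 10.2%. TATAAA stood in 8.09%, 7.08% and 7.21%, and CCAAT in 44.3%, 38.5% and 40.2%. Among 116 promoters of ribosome biogenesis genes CCGGAAGT stood in 31.0%, and among 122 of developmental factors in 0.820%. Of the promoters shown above, GGGCGG, the GC box, was found in those of Gata2 and Bmp4, and CACGTG in that of Bmp4. A match is a run of letters only.

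The effect was next set beside that of the same injection at 24 h. At 24 h mutant against wild-type Hdac1 gave 46 higher (0.332%) and 53 lower genes (0.382%) in limma's test. The fold changes at 24 h and 36 h correlated with r = 0.279 across the 13874 genes. Of the 46 genes higher at 24 h, 43 were also higher at 36 h and 1 was lower. Of the 53 lower at 24 h, 34 were also lower at 36 h and 12 were higher. The 2-cell burst families had 5 of 35 tested members called at 24 h, where their median was -0.59 against 0.63 at 36 h. Ribosomal proteins had 5 of 51 called in the large and 4 of 33 in the small subunit, with medians of -0.34 and -0.49. The difference between the stages was itself called for 3578 genes in the higher (25.8%) and 2726 in the lower direction (19.6%). Among the named genes a few regulators were already higher at 24 h: Gata2 by 2.01 on the log2 scale (limma adjusted p = 0.000689), Msx1 by 1.49 (0.00592), Sox17 by 1.47 (0.0309), Eomes by 1.43 (0.0111), Bmp4 by 1.2 (0.0475) and Junb by 0.81 (0.0451). Obox6, a homeobox gene of the embryo's first transcription, was already lower, by -1.06 on the log2 scale (limma adjusted p = 0.0263). At 36 h it was at 133 and 114 FPKM in wild type and at 11.6 and 20.4 FPKM in mutant libraries.

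Mutant against wild-type Hdac2 at 36 h shares no library with this comparison. Its fold changes correlated with those of Hdac1 at r = 0.918 across genes that are not independent replicates. With Hdac2 31.4% of the genes were higher and 27.3% lower. Both calls were higher in 3767 genes, which is 82.3% of those higher with Hdac1 and 86.6% of those higher with Hdac2, and both lower in 3168 (85.4% and 83.7%). The difference of the 2 effects was called for 10 genes in the higher (0.0721%) and 11 in the lower direction (0.0793%). Of these 21 genes 16 were clones or predicted models and 12 were listed at 0 in all 4 Hdac2 libraries. No member of the gene lists was among them. The counts were 31 and 24 without mutant Hdac1 replicate 2, 42 and 42 without wild-type Hdac1 replicate 2, 7 lower without mutant Hdac1 replicate 1, 5 and 4 without mutant Hdac2 replicate 1, 5 and 5 without mutant Hdac2 replicate 2, 5 lower without wild-type Hdac2 replicate 1, and 17 and 5 without wild-type Hdac2 replicate 2. When only the groups compared entered the fit both were 0, with 556 higher and 368 lower at an unadjusted p under 0.05. Cdkn1c rose by 3.37 with mutant Hdac1, 1.98 with mutant Hdac2 and 1.62 with FK228, values given side by side.

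FK228, an inhibitor of class I deacetylases, gave fold changes against DMSO that correlated at r = 0.875. FK228 gave 31.0% higher and 32.0% lower genes. Both calls were higher in 3460 genes (75.6% of those with Hdac1 and 80.4% of those with FK228) and lower in 3291 (88.7% and 74.2%). The difference of the effects was called for 859 genes in the higher (6.19%) and 289 in the lower direction (2.08%), a share of higher calls of 74.8% that fell to 56.8% after median-ratio scaling and 60.2% after quantile normalization. The counts were 329 and 114 without FK228 replicate 2, 332 and 91 without DMSO replicate 1, 358 and 118 without DMSO replicate 2, 175 lower without FK228 replicate 1 and 177 lower without mutant Hdac1 replicate 1. When only the groups compared entered the fit they were 48 and 6, and the lower count was 103 with a pseudocount of 0.1 and 135 at a minimum of 5 FPKM. Irx5 was among the genes that rose more with mutant Hdac1, by 4.61 against 1.42 on the log2 scale. Dmrta2, a zinc-finger factor of the brain, rose by 2.76 with mutant Hdac1 and had -0.58 with FK228, and the co-activator Cited1 had 2.16 and -1.01. In the other direction Foxj1, the factor of ciliated cells, had 2.23 with mutant Hdac1 and 5.28 with FK228, and Foxn3, a forkhead repressor, had -1.85 and 0.36.

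Mutant Hdac1 mRNA followed by water, read against water alone, used 4 further libraries. Its fold changes correlated at r = 0.895 with those of mutant against wild-type mRNA. It gave 36.2% higher and 22.3% lower genes. Both calls were higher in 3955 genes (86.4% of the one and 78.8% of the other) and lower in 2714 (73.2% and 87.6%). There Hdac1 was at 917 and 805 FPKM, under the level in either injected group compared here. The genes that had risen from 24 h to 36 h stood at medians of 3.65 and 3.75 in log2(FPKM + 1) in these libraries, between the mutant and the water-injected groups. The water-injected libraries help define that class, so their high level there is set by that choice.

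**Figure D5:**
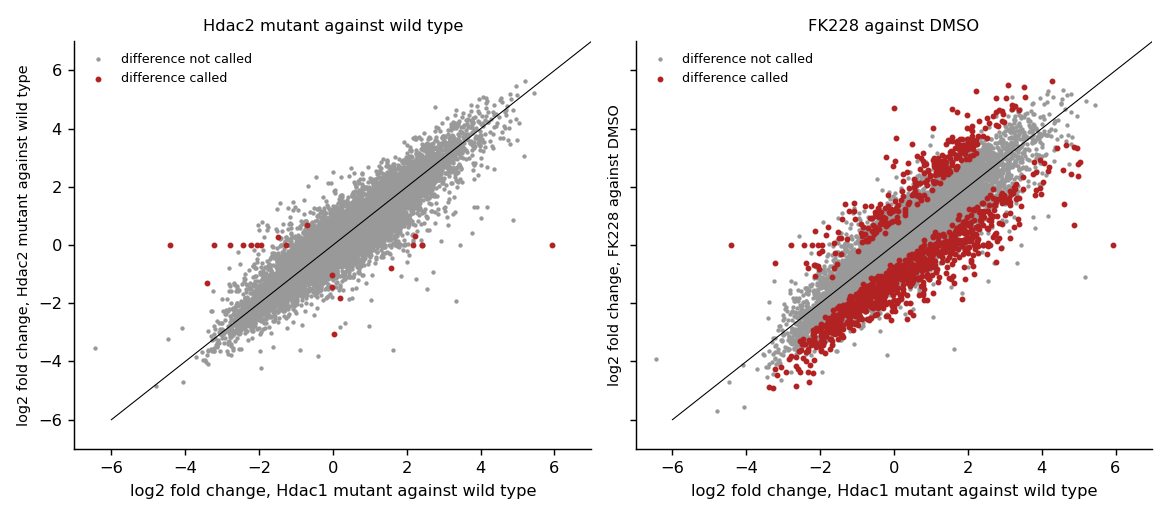
Log2 fold change of mutant over wild-type Hdac1 at 36 h (x axis) against that of mutant over wild-type Hdac2 (left) and of FK228 over DMSO (right) (y axes) for the 13874 genes tested; each point is a gene, genes whose difference was called are in red and the line marks equal change. r was 0.918 and 0.875, with 21 and 1148 genes in red.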

How the data were processed

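Poly(A) RNA of whole mouse embryos was sequenced, and the labels gave group, time and dose. The authors deposited FPKM per gene and library, a unit divided by transcript length and library total, so a change in abundant genes shifts all others and RNA per embryo is not seen. Per the submitters' processing notes the tools included Trimmomatic, HISAT2, featureCounts, Cufflinks and DESeq2 with build GRCm38; which step each served, and its version, is not given in the sources used here. Per the labels' protocols, mRNA was drawn on oligo(dT) beads, with no strand-marking step described, so overlapping and antisense genes cannot be told apart, nor can near-identical copies such as Zscan4, Obox, Hba and Pramel genes.

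Genes with at least 1 FPKM in at least 2 of the 4 libraries were kept, and log2(FPKM + 1) was fitted with limma 3.58.1 (R 4.3.3; variance trend, 1 coefficient per group) over all 22 mouse libraries, with 11 residual degrees of freedom. Tests were two-sided, with Benjamini-Hochberg adjustment over all 13874 genes. The fit was tested on simulated data. Depth is unknown, so no counting interval was computed, and DESeq2 was not used because FPKM are not counts. No per-sample column was left without a sample. Python 3.11.15, pandas 2.3.3, scipy 1.17.1 and matplotlib 3.10.9 were used for summaries and plots; coordinates are from GENCODE M21 on GRCm38. Alternatives were another pseudocount, 3 other filters, 2 other scalings, a fit of the compared groups alone, the replicate number as a block and leaving out each library. The groups, members and gene lists were chosen with earlier results of these data known. Named genes were up to 15 each way with the largest fold change among calls with groups that do not overlap and at least 5 FPKM in the higher group (no clones or predicted models), up to 4 called members of each list in each direction, up to 3 each way in each stage class, up to 5 each way for each difference between effects, and Hdac1, Hdac2 and Kdm5b.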

Additional observations from a re-analysis of the deposited data

Results flagged for a closer look

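The effect of mutant Hdac1 differed between 36 h and 24 h by limma's test of the difference itself, for 3578 genes in the higher and 2726 in the lower direction. Higher here means a more positive change of mutant over wild type at 36 h than at 24 h. Against the effect of mutant Hdac2 at 36 h the difference was called for 10 genes in the higher and 11 in the lower direction, and against the effect of FK228 for 859 and 289. Each was noted because the same kind of contrast differed between 2 groups of libraries.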

How the results depend on the processing

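The number of genes higher at 36 h was within 1.5 times of 4577 in 7 of 8 settings and was 2465 at a minimum of 5 FPKM, where fewer genes are tested. The number lower stayed within 1.5 times of 3709 in all 8. When only the groups compared were fitted, 3439 genes were higher and 2698 lower. Leaving out 1 library gave 4121 to 4318 higher and 3247 to 3621 lower genes. Of the calls 55.2% were higher, against 43.5% at a minimum of 5 FPKM. For the late minus early difference the higher count was 2052 at a minimum of 5 FPKM, and leaving out 1 library gave 3011 to 3411 higher and 2296 to 2771 lower. For the difference from Hdac2 the counts were 5 higher and 2 lower with a pseudocount of 0.1, and 0 and 0 when only the groups compared were fitted; leaving out 1 library gave 5 to 42 higher and 4 to 42 lower. For the difference from FK228 the higher count was 429 after median-ratio scaling and 48 with only the groups compared, and the lower count was 103 with a pseudocount of 0.1, 135 at a minimum of 5 FPKM and 6 with only the groups compared; leaving out 1 library gave 329 to 853 and 91 to 378. The cause of these shifts was not tested.

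Deviations of same-numbered mutant and wild-type libraries correlated at r = 0.173, with 2 pairs, and those of the water libraries at 0.194 with mutant and 0.210 with wild type; mt-Atp8 was higher in replicate 1 in all 3 groups. With the replicate number as a block 4592 genes were higher and 3750 lower, late minus early 3590 and 2754, minus Hdac2 11 and 13, and minus FK228 890 and 282. The block is 1 shift common to all mouse groups, so it can take up a shift confined to these 3 groups only in part. The labels do not say what the numbers mark. After quantile normalization the median of class I, II and IV deacetylases was -0.083 (0.45 otherwise), that of H3K4 methyltransferase complexes 0.066 (-0.24), that of replication-independent and linker histones 0.074 (-0.47), and that of SIN3 subunits 0.37 (-0.09; 0.013 without mutant replicate 2); the deacetylase median was -0.077 to 0.82 when 1 library was left out. FPKM give no depth, so low genes carry errors of unknown size, and 2 libraries per group limit every spread.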
